A study of Mus musculus with 12 samples.

Results

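Sister chromatids are held together by cohesin, a ring of the proteins encoded by Smc3, Smc1a or its meiotic counterpart Smc1b, and a kleisin subunit that closes the ring, Rad21 or the meiotic Rec8. Stag3 encodes a further subunit that is specific to germ cells. Separase, the protease encoded by Espl1, opens the ring by cutting the kleisin, and securin, encoded by Pttg1, keeps separase inactive until anaphase. In the egg, which waits for fertilization at metaphase of the second meiotic division, the remaining centromeric cohesin keeps the sister chromatids paired, and Rec8 is the kleisin known for this role.

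Of the 18193 gene symbols on the array, 8 were followed here. The genes Rec8, Stag3, Smc1a, Smc1b, Smc3, Rad21, Espl1 and Pttg1 were represented by 15 of the 45037 probe sets that are not array controls, taking every probe set annotated with a single symbol that was one of them. The values come from 12 Affymetrix arrays of in vitro matured CF1 mouse eggs at metaphase II, in 4 groups of 3 independent biological replicates, with RNA of 30 eggs on each array. Full-grown oocytes at the germinal vesicle stage were microinjected with siRNA pools against Dcp1a and Dcp2 together (the double knockdown), against Dcp2 alone, against Dcp1a alone, or with a control siRNA. All groups were injected, then held in milrinone, which blocks maturation, for 20 h and matured without it for 18 h. Dcp2 encodes the enzyme that removes the 5′ cap of mRNA and Dcp1a a cofactor of that enzyme. The question addressed here was whether the mRNAs of the cohesin ring and of its cutting enzyme differed in eggs depleted of these decapping factors. Depletion was transient, by siRNA in each oocyte, and no gene was deleted.

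The target mRNAs followed the labels. The brightest Dcp1a probe set read 517.7 to 1233.3 in the double knockdown, 6397.2 to 10247.9 in the Dcp2 knockdown, 589.3 to 1235.5 in the Dcp1a knockdown and 5384.8 to 12427.1 in control eggs. The brightest Dcp2 probe set read 4.9 to 5 in the double and Dcp2 knockdowns, 32.4 to 57.1 in the Dcp1a knockdown and 30.4 to 81.8 in control eggs. Of 11 egg markers, 10 had a probe set with a single symbol and each of these 10 was measured above 32 units. For cumulus and granulosa cells, 0 of 13 markers on the array had such a probe set, and their summed intensity over 24 probe sets was 123 to 128 on every array. For other ovarian, stromal or blood cells it was 1 of 9. Some arrays stood apart from their group. Across probe sets, control replicate 1 was more like each Dcp1a knockdown array (r of 0.978 to 0.988) and each Dcp2 knockdown array (0.96 to 0.973) than like the rest of its own group (0.938 and 0.954). Dcp2 knockdown replicate 2 likewise was more like other groups (0.978 to 0.985 with Dcp1a knockdown arrays, 0.967 to 0.973 with control arrays, 0.938 and 0.963 within its group). Results that rest on these arrays are also given without them.

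The genes restricted to meiosis gave no usable level on this array. Values are GCRMA intensities on a linear scale whose lowest reading is 4.9, and a probe set was tested only if it exceeded 32 units on at least 3 of the 12 arrays. The only Rec8 probe set (1419147_at) and the only Stag3 probe set (1460229_at) were listed at 4.9 on all 12 arrays. The Smc1b probe set (1449253_at) read 8.3, 8 and 20.4 in the double knockdown, 5.7, 6.5 and 5.3 in the Dcp2 knockdown, 5.7, 5.6 and 5 in the Dcp1a knockdown and 6, 5.7 and 5.7 in control eggs. All 3 double knockdown arrays thus read above the other 9, but every value lay under 32 units, so no fold is given. Whether Rec8, Stag3 and Smc1b mRNA was scarce or was missed by these probes was not tested. Values are relative to the other transcripts of an array, so less of an mRNA per egg and more of all others cannot be told apart.

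Further probe sets at the low end belonged to genes that had a brighter one. Pttg1 1419620_at was listed at 4.9 on all 12 arrays, Smc3 1450951_at read 5 to 7 and Rad21 1416162_at 7.4 to 13.8. This left 9 of 15 probe sets, of 5 genes, among the 11593 that were tested: 3 for Smc1a, 2 each for Rad21 and Pttg1, and 1 each for Smc3 and Espl1. The description that follows therefore covers the ring subunits Smc1a and Smc3, the kleisin Rad21, separase and securin, and it holds no measurement of the meiosis-specific subunits. Passing depended on signal on any arrays, whatever their group.

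**Figure D1:**
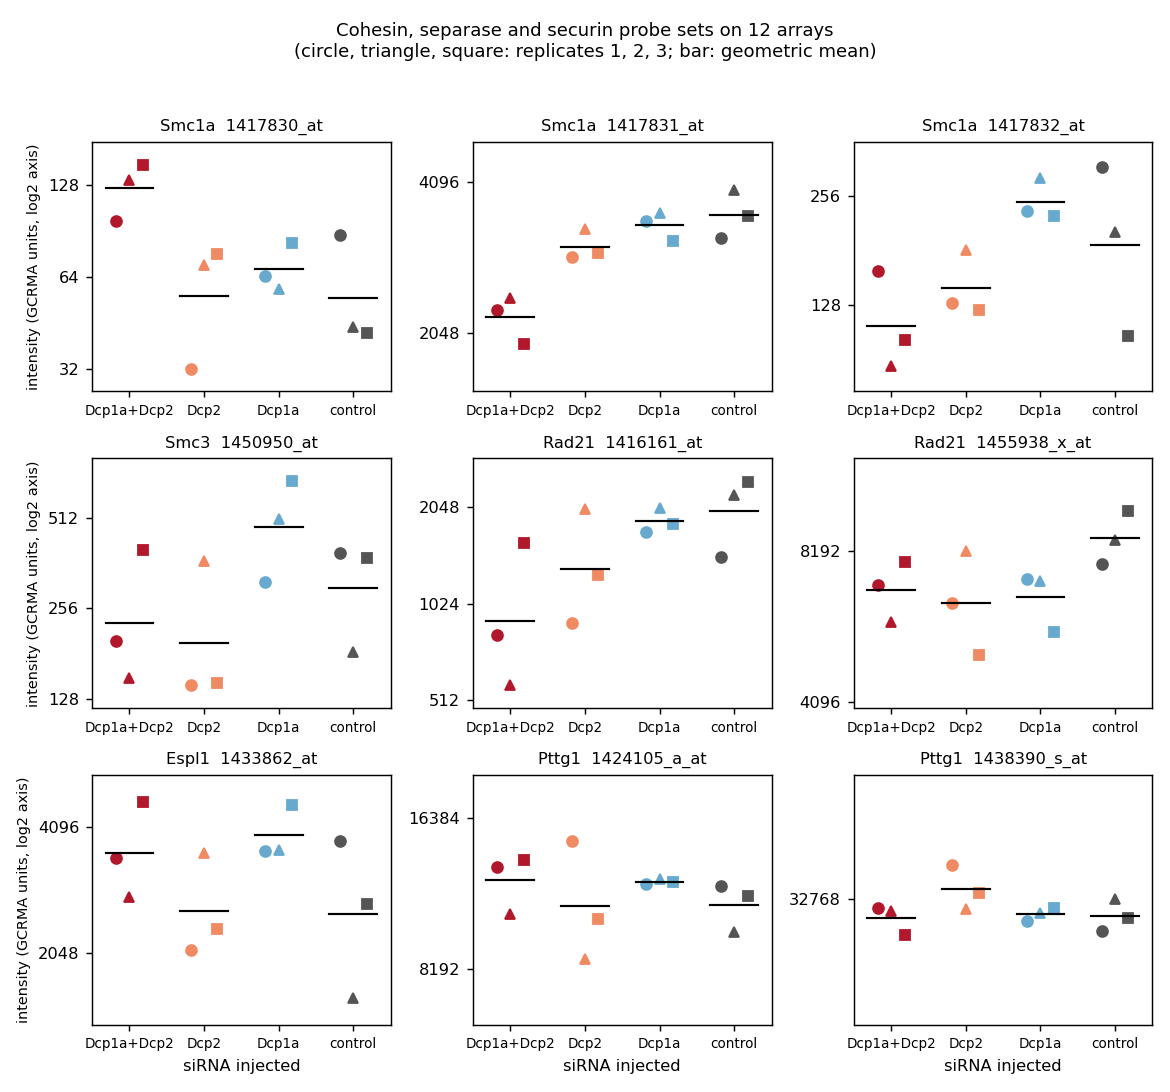
Intensity of the 9 tested probe sets of Smc1a, Smc3, Rad21, Espl1 and Pttg1 on each array (GCRMA units, log2 axis), with eggs grouped by injected siRNA. Points are replicates and bars geometric means of 3; the Smc1a probe set 1417831_at lies lower on all 3 double knockdown arrays (1953.1 to 2408.3) than on any other array, while Smc1a 1417830_at lies highest there (97.8 to 149.2).

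Smc1a was the gene of the group with a change past the test. Smc1a encodes the SMC1 subunit of the ring used in mitotic cells. Its brightest probe set, 1417831_at, read 2282.9, 2408.3 and 1953.1 in the double knockdown, 2900.8, 3296.8 and 2954.1 in the Dcp2 knockdown, 3432.4, 3553.5 and 3120.1 in the Dcp1a knockdown and 3171.4, 3955.3 and 3510 in control eggs. Each double knockdown array lay below all 9 others, whereas the ranges of the other neighbouring groups overlapped. The double knockdown stood below control eggs, with a log2 change of -0.68 ± 0.16 (SE, 95% interval -1.03 to -0.33, adjusted p = 0.024, limma), or 1.6-fold lower. Against the Dcp1a knockdown the log2 change was -0.61 ± 0.16 (adjusted p = 0.032, limma). Against the Dcp2 knockdown it was -0.47 ± 0.16 and did not pass (adjusted p = 0.148, limma), although those groups did not overlap either. The single knockdowns had log2 changes of -0.21 ± 0.16 for Dcp2 and -0.07 ± 0.16 for Dcp1a against control (adjusted p = 0.5 and 0.944, limma).

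The calls for Smc1a lay close to the threshold. Under median centring of the arrays the change against control was -0.71 with adjusted p = 0.0532, and under quantile normalization -0.64 with adjusted p = 0.0593 (limma). It was also lost with the spread taken from the compared groups alone (adjusted p = 0.134, limma), without control replicate 2 (0.0949) and without any 1 of the double knockdown arrays (0.0547 to 0.0717), while the log2 change stayed between -0.76 and -0.59 over all 20 alternatives. Without control replicate 1 and Dcp2 knockdown replicate 2 together it was -0.76 (adjusted p = 0.0108, limma). The call against the Dcp1a knockdown ended under 8 of 20 alternatives, among them leaving out any 1 array of either group, with adjusted p up to 0.124.

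The other Smc1a probe sets did not follow a single course. The dim 1417830_at read 97.8, 133.5 and 149.2 in the double knockdown, 32.2, 70.2 and 76.1 in the Dcp2 knockdown, 64.6, 58.8 and 83 in the Dcp1a knockdown and 88.2, 43.9 and 42.1 in control eggs. It was thus highest on the 3 double knockdown arrays, the opposite of the brightest probe set. The log2 change was 1.19 ± 0.37 against control (95% interval 0.37 to 2.01, adjusted p = 0.0734, limma) and did not pass, nor did it against the Dcp2 knockdown (1.17 ± 0.37, adjusted p = 0.11) or the Dcp1a knockdown (0.88 ± 0.37, adjusted p = 0.135). Without control replicate 1, whose value of 88.2 was the highest control reading, the change against control was 1.54 with adjusted p = 0.0152 (limma), and with Dcp2 knockdown replicate 2 also left out it was 1.54 (0.013). It passed as well without Dcp2 knockdown replicate 1, at 1.19 (adjusted p = 0.0401, limma). The change against the Dcp1a knockdown, 0.88, passed with the spread taken from the compared groups alone (adjusted p = 0.0324, limma).

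The third Smc1a probe set, 1417832_at, read 158.6, 86.7 and 102.8 in the double knockdown, 129.8, 181.7 and 123.7 in the Dcp2 knockdown, 231.6, 286.7 and 224.4 in the Dcp1a knockdown and 307.2, 203.3 and 105.4 in control eggs. Control arrays alone spanned the values of most other arrays. The log2 change in the double knockdown was -0.74 ± 0.36 against control (adjusted p = 0.205, limma) and -1.13 ± 0.36 against the Dcp1a knockdown (adjusted p = 0.0658, limma), where the groups did not overlap. Of the 20 alternatives, the change against control passed only without control replicate 3, at -1.15 (adjusted p = 0.0399, limma). Without control replicate 1 and Dcp2 knockdown replicate 2 it was -0.38 (adjusted p = 0.391, limma). The change against the Dcp1a knockdown passed under 4 of 20 alternatives, at an unaltered -1.13. It passed with the spread taken from the compared groups alone (adjusted p = 0.0234, limma). It also passed without control replicate 1 (adjusted p = 0.0338, limma), control replicate 3 (0.0224), or control replicate 1 and Dcp2 knockdown replicate 2 together (0.0257). The arrays left out here enter that comparison only through the shared spread. The 95% intervals of 1417830_at and 1417831_at against control lie on opposite sides of 0. The difference between these probe sets was not tested, and which transcripts or parts of Smc1a each one detects is not stated in the sources used here.

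Smc3, the partner of SMC1 in every cohesin ring, was read by 1 tested probe set (1450950_at). It had 199.2, 149.6 and 400.3 units in the double knockdown, 141.5, 368.1 and 144.1 in the Dcp2 knockdown, 313.7, 507.9 and 677.7 in the Dcp1a knockdown and 391, 182.9 and 375.8 in control eggs. The highest reading of the Dcp2 knockdown was replicate 2, the array that stood apart from its group. All neighbouring groups overlapped. Among the 9 probe sets its spread within groups was the widest, with a residual SD of 0.68 (log2) against a median of 0.36 over all tested probe sets. Log2 changes against control were -0.39 ± 0.49 in the double knockdown, -0.61 ± 0.49 in the Dcp2 knockdown and 0.67 ± 0.49 in the Dcp1a knockdown (adjusted p = 0.611, 0.522 and 0.853, limma). With a 95% interval of -1.47 to 0.69 in the double knockdown, neither a 2-fold fall nor no change lies outside it. Against the Dcp1a knockdown the double knockdown had a change of -1.06 ± 0.49 (adjusted p = 0.166, limma). Without control replicate 1 and Dcp2 knockdown replicate 2 the changes against control were -0.20 for the double knockdown and -0.88 for Dcp2 alone (adjusted p = 0.776 and 0.233, limma).

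Rad21 encodes the kleisin of mitotic cohesin, which separase cuts at anaphase. Its probe set 1416161_at read 818.1, 573.5 and 1581.4 in the double knockdown, 895, 2031.4 and 1258.1 in the Dcp2 knockdown, 1719.1, 2039 and 1813 in the Dcp1a knockdown and 1437.5, 2234.8 and 2458.9 in control eggs. Replicates 1 and 2 of the double knockdown were the lowest of all 12 arrays, and replicate 3 lay above control replicate 1. The log2 change against control was -1.14 ± 0.39 (95% interval -1.99 to -0.29) in the double knockdown and did not pass (adjusted p = 0.0939, limma). The single knockdowns had changes of -0.60 ± 0.39 for Dcp2 and -0.10 ± 0.39 for Dcp1a (adjusted p = 0.464 and 0.968, limma).

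The Rad21 result turned on single arrays. Without double knockdown replicate 3 the change against control was -1.54 (adjusted p = 0.0267, limma) and against the Dcp1a knockdown -1.44 (adjusted p = 0.0241). Without control replicate 1 it was -1.37 against control (adjusted p = 0.0434, limma). Without Dcp2 knockdown replicate 2 as well it was again -1.37 (adjusted p = 0.0251, limma). The Dcp2 knockdown then had a change of -1.14 (adjusted p = 0.0704, limma), beside -0.60 with all arrays. With all arrays the change against the Dcp1a knockdown was -1.03 ± 0.39 (adjusted p = 0.101, limma), and those groups did not overlap.

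The brighter Rad21 probe set, 1455938_x_at, carries the suffix that Affymetrix gives to probe sets which may also bind other transcripts. It read 6993.5, 5924 and 7772.7 in the double knockdown, 6448.2, 8177.5 and 5070.8 in the Dcp2 knockdown, 7217.4, 7130.9 and 5647.1 in the Dcp1a knockdown and 7721.2, 8622.6 and 9833.4 in control eggs. Control eggs had the highest mean, and only the Dcp1a knockdown arrays all lay under every control array. Log2 changes against control were -0.34 ± 0.21, -0.43 ± 0.21 and -0.39 ± 0.21 in the double, Dcp2 and Dcp1a knockdowns (adjusted p = 0.299, 0.425 and 0.853, limma). These comparisons share the control arrays. The changes were -0.43, -0.69 and -0.48 in the same order without control replicate 1 and Dcp2 knockdown replicate 2 (adjusted p = 0.138, 0.0542 and 0.2, limma). Against the Dcp1a knockdown the double knockdown differed by 0.05 ± 0.21, with a 95% interval of -0.42 to 0.52. For 1416161_at that change was -1.03, with an interval of -1.89 to -0.18, which overlaps it. The difference between these 2 Rad21 probe sets was not tested.

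No change of separase mRNA passed the test. Espl1 (1433862_at) read 3444.2, 2779.4 and 4688.2 in the double knockdown, 2083.8, 3534.9 and 2328.9 in the Dcp2 knockdown, 3575.7, 3602.7 and 4621.4 in the Dcp1a knockdown and 3796.1, 1599.3 and 2678.1 in control eggs. Control replicate 2 was the lowest array, and each knockdown overlapped with control eggs. Log2 changes against control were 0.49 ± 0.33 in the double knockdown, 0.03 ± 0.33 in the Dcp2 knockdown and 0.62 ± 0.33 in the Dcp1a knockdown (adjusted p = 0.333, 0.974 and 0.853, limma). The 95% interval in the double knockdown was -0.23 to 1.21. The changes were 0.78, 0.09 and 0.92 in the same order without control replicate 1 and Dcp2 knockdown replicate 2 (adjusted p = 0.0684, 0.853 and 0.0928, limma).

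Of 6789 other named genes, those whose brightest probe set followed Espl1 most closely over the 12 arrays were Tent4a, Ankrd17 and Anapc1, with Pearson's r of 0.978, 0.965 and 0.965. Anapc1 encodes a subunit of the anaphase-promoting complex. These are the highest of many values, from arrays that share group and array effects, and are given as a description.

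No change of securin mRNA passed the test. Pttg1 1438390_s_at, the brighter probe set, read 31362.1, 30979.1 and 27753.4 in the double knockdown, 38211.6, 31205.5 and 33675.8 in the Dcp2 knockdown, 29579.1, 30719.5 and 31339.6 in the Dcp1a knockdown and 28240.1, 32652.8 and 29992.1 in control eggs. Replicate 1 of the Dcp2 knockdown was the highest array and replicate 3 of the double knockdown the lowest. Its residual SD of 0.1 (log2) was the smallest of the 9 probe sets and lay at percentile 2.44 of all tested. The log2 change against control was -0.01 ± 0.15 in the double knockdown (95% interval -0.34 to 0.32), 0.18 ± 0.15 in the Dcp2 knockdown and 0.01 ± 0.15 in the Dcp1a knockdown (adjusted p = 0.964, 0.537 and 0.992, limma).

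Pttg1 1424105_a_at read 13064.2, 10535 and 13523.2 in the double knockdown, 14731.8, 8579.2 and 10280.7 in the Dcp2 knockdown, 12072.8, 12370.9 and 12222.3 in the Dcp1a knockdown and 11981.2, 9699.3 and 11433.8 in control eggs. The Dcp1a knockdown arrays were all slightly above the control arrays. The log2 changes against control were 0.16 ± 0.21, -0.01 ± 0.21 and 0.15 ± 0.21 in the double, Dcp2 and Dcp1a knockdowns, with adjusted p = 0.622, 0.984 and 0.901 (limma). The lowest array was Dcp2 knockdown replicate 2. Without it and control replicate 1 the changes were 0.22, 0.22 and 0.21 in the same order (adjusted p = 0.423, 0.471 and 0.581, limma). With all arrays the 95% interval in the double knockdown, -0.30 to 0.62, leaves out changes of 2-fold in either direction. The genes most like Pttg1 1438390_s_at over the 12 arrays were Rnf185, Sec14l2 and Depp1 (r of 0.921, 0.921 and 0.92).

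**Figure D2:**
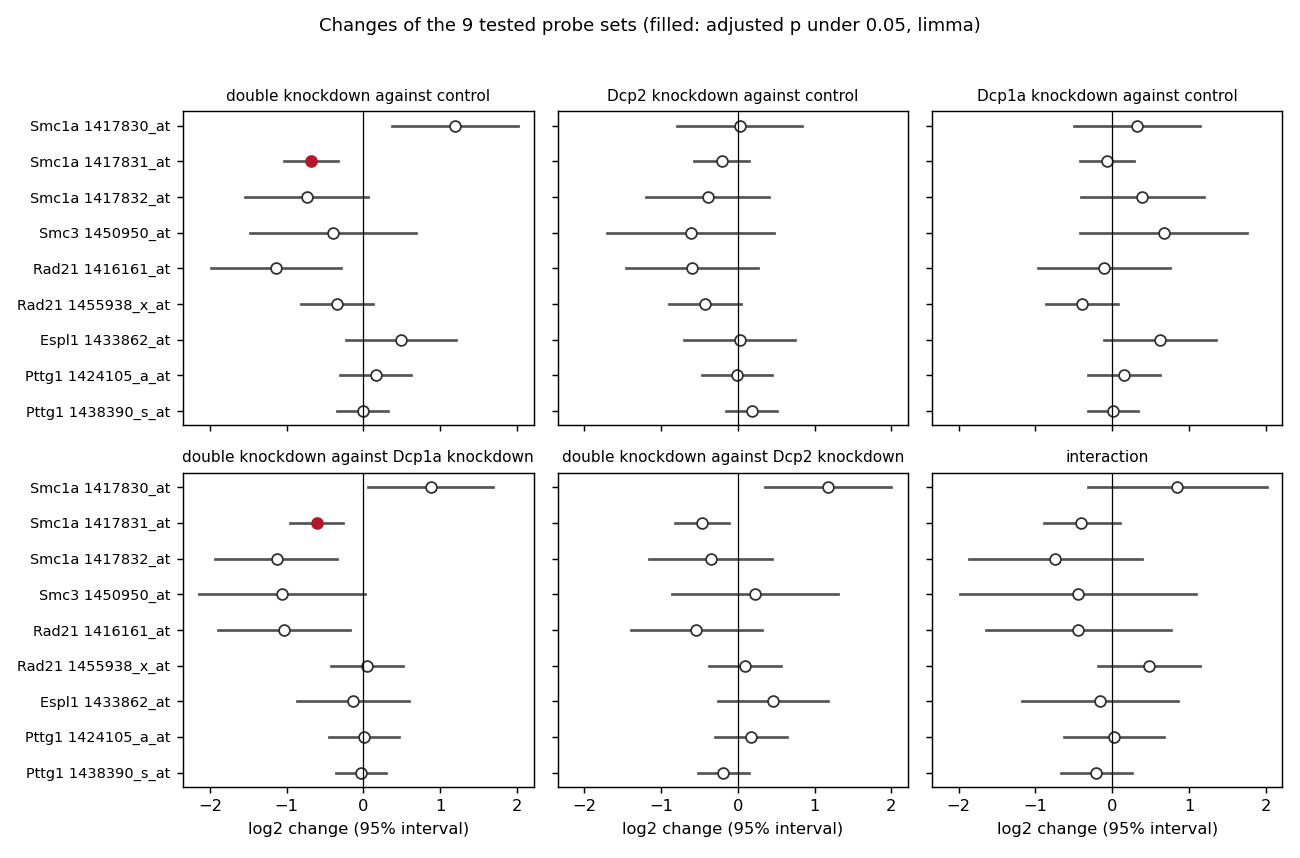
Log2 changes (points) with 95% intervals (lines) of the 9 tested probe sets in each of 6 comparisons, from limma over 12 arrays; filled points passed at adjusted p under 0.05. The only filled points belong to Smc1a 1417831_at, at -0.68 in the double knockdown against control and -0.61 against the Dcp1a knockdown.

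Counted together, the share of tested probe sets called was near that of the array as a whole. In the double knockdown against control 0 of 9 were called higher and 1 lower, where 8.72% of all 11593 tested probe sets were called in either direction. Their median log2 change was -0.34, beside -0.02 over all tested probe sets, with 3 changes above 0 and 6 below. Groups did not overlap for 2 of 9, against 24.8% of all. Against the Dcp1a knockdown 1 of 9 was called, lower, where 12.1% of all were called, and 4 of 9 did not overlap, against 48.6% of all. In that comparison the median over all tested probe sets was -0.11. The members' median was -0.14.

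The remaining comparisons gave no call among the 9. Against the Dcp2 knockdown the double knockdown had 0 calls (limma; 2 of 9 at an unadjusted p under 0.05), where 6.37% of all tested probe sets were called, and 2 of 9 did not overlap, against 21.2%. The Dcp2 knockdown against control had 0 calls by limma, with 0 of 9 at an unadjusted p under 0.05, where 0.0173% of all were called and the median over all was -0.11. Groups did not overlap for 0 of 9, against 7.38% of all. The Dcp1a knockdown against control likewise had 0 calls by limma and 0 at an unadjusted p under 0.05, where 0.0518% of all were called. There 2 of 9 did not overlap, against 11.6%.

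Departure from additivity was tested as an interaction, taken as the log2 change after combined injection less the changes seen after either siRNA alone. It was called for 3.93% of all tested probe sets and for 0 of 9 here (limma; 0 of 9 at an unadjusted p under 0.05). The departures ran from -0.74 ± 0.51 for Smc1a 1417832_at to 0.85 ± 0.53 for Smc1a 1417830_at (adjusted p = 0.768 and 0.7, limma). For Smc1a 1417831_at it was -0.40 ± 0.23, with a 95% interval of -0.89 to 0.10 (adjusted p = 0.639, limma), so its lower level in the double knockdown was not shown to exceed the sum of the single changes.

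**Figure D3:**
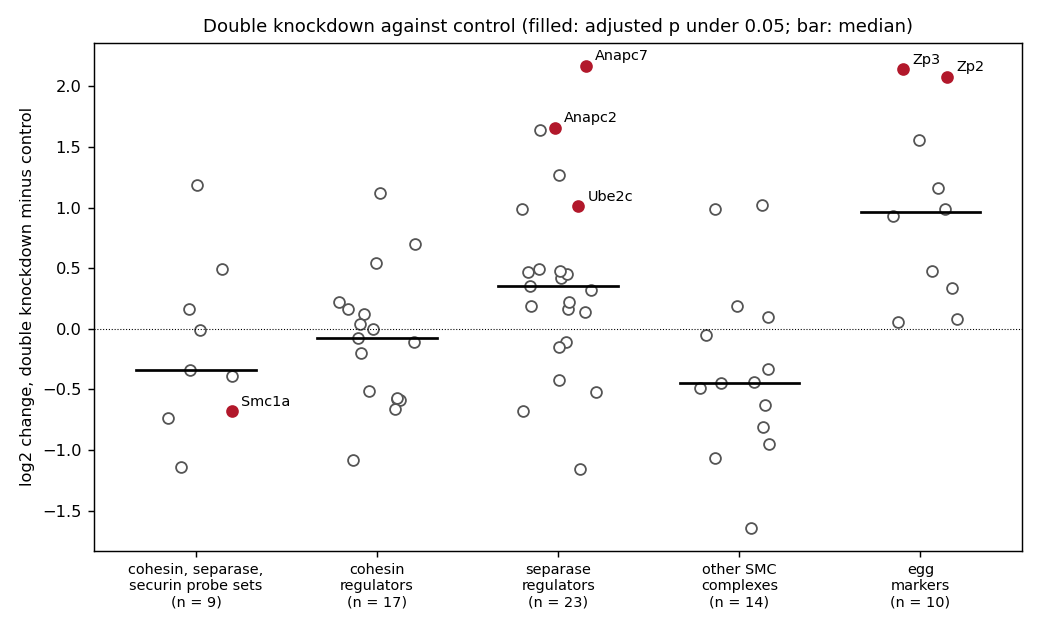
Log2 change of the double knockdown minus control for the 9 tested probe sets and for the brightest tested probe set of each gene in 4 lists; bars are medians and filled points passed at adjusted p under 0.05 (limma). Called points are Smc1a (-0.68) in the cohesin group, Anapc7 (2.17), Anapc2 (1.66) and Ube2c (1.01) among separase regulators, and the zona pellucida genes Zp3 (2.14) and Zp2 (2.08) among egg markers.

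Genes that load, acetylate, release or protect cohesin were read beside the ring itself, each by its brightest tested probe set. Of 20 such genes listed, 17 were tested, and in the double knockdown against control 0 rose and 0 fell (limma), where 8.72% of all tested probe sets were called. Their median log2 change was -0.08, beside -0.02 over all. Nearest to the threshold were subunits of protein phosphatase 2A, which with shugoshin protects centromeric cohesin. The regulatory subunit gene Ppp2r5e had a log2 change of -0.66 ± 0.22 (adjusted p = 0.0904, limma) and the catalytic subunit gene Ppp2ca one of 0.54 ± 0.22 (adjusted p = 0.14, limma). Nipbl came close behind Ppp2ca with a larger change, 1.12 ± 0.45 (adjusted p = 0.144, limma). The other tested subunit genes of the phosphatase, Ppp2r1a, Ppp2r5a and Ppp2r5c, had changes of 0.04 ± 0.16, 0.70 ± 0.35 and -0.11 ± 0.46 (adjusted p = 0.885, 0.216 and 0.886, limma). Other tested probe sets of Ppp2r5e had changes of 0.15 ± 0.28, -0.12 ± 0.19 and -0.8 ± 0.37. Another of Ppp2ca had one of -0.34 ± 0.42, opposite in sign, and none of these passed. Without control replicate 1 the change of the brightest Ppp2r5e probe set was -0.78 (adjusted p = 0.0425, limma), and it also passed without Dcp2 knockdown replicate 2 or 3 (0.0482 and 0.0434). The shugoshin genes had log2 changes of -0.08 ± 0.17 for Sgo1 and -0.57 ± 0.35 for Sgo2a (adjusted p = 0.771 and 0.294, limma). In the double knockdown against the Dcp1a knockdown 0 of the 17 genes rose and 1 fell, where 12.1% of all tested probe sets were called. That gene was Stag2, the cohesin subunit whose place Stag3 takes in meiosis (-1.14 ± 0.32, adjusted p = 0.0428, limma). Stag2 was called in no other comparison. Of 20 alternatives 10 ended the Stag2 call. Among them were leaving out any 1 of the Dcp1a knockdown arrays or replicate 1 or 2 of the double knockdown (adjusted p = 0.0884 to 0.171, limma). Others were leaving out control replicate 2 or 3 or Dcp2 knockdown replicate 1 (0.0523 to 0.0569), and applying no filter (0.208). The dimmer Stag2 probe set had a change of -0.68 ± 0.20 against the Dcp1a knockdown (adjusted p = 0.0505, limma).

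A list of genes acting on separase from either side holds the anaphase-promoting complex with its activators and ubiquitin-conjugating enzymes, and also spindle checkpoint genes and others that keep separase inactive. Of 27 listed, 23 were tested, and 3 rose and 0 fell in the double knockdown against control, where 8.72% of all tested probe sets were called (median 0.35, beside -0.02 over all). Anapc2, the cullin subunit of the anaphase-promoting complex, read 104.3, 142.8 and 110.8 in the double knockdown against 39, 32.8 and 41.1 in control eggs, a log2 change of 1.66 ± 0.18 (adjusted p = 0.000296, limma). Anapc7 (1418458_at) read 391.9, 418.5 and 388.6 in the double knockdown against 84.6, 35.2 and 233.1 in control eggs, with control replicates 2 and 3 far apart. By this probe set it rose by 2.17 ± 0.50 (adjusted p = 0.0215, limma), though a second one (1441713_at) had a change of -0.54 ± 0.24 (adjusted p = 0.173, limma). Against the Dcp1a knockdown, where 12.1% of all tested probe sets were called, 1418458_at was called higher and 1441713_at lower. Their changes there were 2.17 ± 0.50 and -0.83 ± 0.24 (adjusted p = 0.0169 and 0.0458, limma). Ube2c, the ubiquitin-conjugating enzyme of the complex, rose by 1.01 ± 0.25 against control (adjusted p = 0.0295, limma). Against control the Anapc2 call held under all 20 alternatives. Those of Anapc7 and Ube2c were lost with no filter (adjusted p = 0.161 and 0.134, limma) and with the spread from the compared groups (0.143 and 0.14). That of Anapc7 was also lost without double knockdown replicate 1 or 2 (adjusted p = 0.0687 and 0.0818, limma), and that of Ube2c without control replicate 2 or 3, Dcp1a knockdown replicate 2, or double knockdown replicate 1 or 2 (0.0504 to 0.117). In the same eggs 2 of 10 egg markers also rose against control, with a list median of 0.96. The summed egg marker intensity was 151988 to 162829 in the double knockdown and 98632 to 128421 in the Dcp2 knockdown. It was 132039 to 145391 in the Dcp1a knockdown, also above every control array, and 91013 to 129753 in control eggs. The part of that shift in the result was not tested.

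For the related SMC complexes, condensin and SMC5/6, all 14 genes listed were tested and 0 rose or fell in the double knockdown against control (limma), where 8.72% of all tested probe sets were called. Their median was -0.44, beside -0.02 over all. Ncapg, a condensin subunit, had a log2 change of -0.81 ± 0.24 and Smc2, the SMC partner of Smc4 in condensin, one of -0.63 ± 0.19 (adjusted p = 0.0613 and 0.0614, limma). The other tested Ncapg probe set had a change of 0.35 ± 0.31 against control, opposite in sign. Those of Smc2 had changes of -1.46 ± 0.44 and -0.53 ± 0.55, and none of these passed. Against the Dcp1a knockdown 1 of the 14 genes rose and 1 fell, where 12.1% of all tested probe sets were called. Ncapg was called lower there (-0.97 ± 0.24, adjusted p = 0.023) and Ncaph, the kleisin of condensin, higher (1.37 ± 0.32, adjusted p = 0.0183, limma). For Ncapg the other tested probe set had a change of 0.55 ± 0.31 in that comparison, opposite in sign. For Ncaph the other tested probe set had one of 0.92 ± 0.24, in the same direction (adjusted p = 0.0312, limma). The brightest Smc2 probe set had a change of -0.61 ± 0.19 in that comparison and did not pass (adjusted p = 0.0581, limma). Another Smc2 probe set, 1429660_s_at, was called lower (-1.97 ± 0.44, adjusted p = 0.0147, limma). The dimmest one, at -0.27 ± 0.55, did not pass (adjusted p = 0.765, limma). The Ncapg call was lost without any 1 of the Dcp1a knockdown arrays or without double knockdown replicate 1 or 2 (adjusted p = 0.0668 to 0.101, limma). That of Ncaph was lost without Dcp1a knockdown replicate 3 or double knockdown replicate 1 or 2 (0.0756 to 0.0793). With no filter both calls were lost (0.0939 for Ncapg and 0.109 for Ncaph). Without control replicate 1, the brightest probe sets of Ncapg and Smc2 passed against control (-0.91 and -0.71, adjusted p = 0.0354 and 0.0347, limma). With all arrays Ncapg passed there under median centring (-0.84, adjusted p = 0.0417, limma) and with an intensity trend (0.0426). It also passed without Dcp2 knockdown replicate 3 (adjusted p = 0.0417, limma) or double knockdown replicate 3 (0.0279), and Smc2 without Dcp2 knockdown replicate 2 (0.0365). Stag2, Ncaph, Sgo1, Sgo2a, Nipbl, Ppp2r1a, Ppp2r5a, Ppp2r5c and the egg markers Zp2 and Zp3 lie outside the rule for naming genes. So do the comparisons with the Dcp1a knockdown. All of these were singled out after their values were seen.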

How the data were processed

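RNA from pools of 30 eggs was amplified and labelled following Affymetrix's method for small samples, per the labels' protocols. The deposited intensity values are the authors' GCRMA output, per the submitters' processing notes, with no version stated in the sources used here; that the scale is linear was read from the values. GCRMA adjusts background from probe composition, equalises arrays and merges the probes of a set. It brings dim signals to a floor: 55.6% of values were at or under 5 units. The number of arrays limits precision.

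Log2 values were used. From 45101 probe sets the 64 array controls were removed, and 11593 with log2 above 5 (32 units) on at least 3 of 12 arrays were tested. Names came from the platform annotation, where 34945 probe sets had 1 symbol, 932 several and 9160 none. Group means were compared with limma 3.58.1 in R 4.3.3 (lmFit, eBayes without trend) on the full set of 12 arrays (8 residual, 2.97 prior degrees of freedom), two-sided, with Benjamini-Hochberg adjustment over 11593 probe sets and a threshold of 0.05. The procedure was tested on simulated data. Errors of log2 changes are standard errors, and p-values measure the spread among egg pools. In lists a gene was represented by its tested probe set with the highest mean. By rule, with exceptions stated where they occur, genes named are all members, list genes past the threshold in the double knockdown against control (where fewer than 2 passed, those nearest to it), and for Espl1 and Pttg1 the 3 best correlated genes; Rec8 had no tested probe set. Members and lists were chosen with earlier results of these data known. Sequences of the probes were not used here.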

Additional observations from a re-analysis of the deposited data

Results flagged for a closer look

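Among the members no departure from additivity passed the test. Departures of 2 of the 23 tested separase regulators did, where 3.93% of all tested probe sets were called. A departure here is the difference between the log2 change with Dcp2 siRNA in eggs with and without Dcp1a siRNA. For Anapc2 the departure was 1.28 ± 0.25 (log2, SE, adjusted p = 0.0159, limma). It lay between 1.11 and 1.37 over 19 alternatives, with adjusted p of 0.0142 to 0.0582, and 4 of them ended the call. Cdk1, singled out after its values were seen, encodes the kinase that with cyclin B also inhibits separase. Its brightest probe set departed by 3.23 ± 0.78 (adjusted p = 0.0448, limma). It read 56.5 ± 35.3 in the double knockdown, 9.23 ± 1.07 in the Dcp2 knockdown, 9.27 ± 0.85 in the Dcp1a knockdown and 20.8 ± 19.2 in control eggs (mean ± SD, n = 3 arrays each). Most of these readings were under 32 units, and with values under 32 set to 32 the departure was 0.84 (adjusted p = 0.577, limma). Over 19 alternatives 10 ended this call, among them applying no filter (adjusted p = 0.308, limma).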

How the results depend on the processing

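The 9 tested probe sets in 6 comparisons gave 54 results, each refitted under 19 or 20 alternatives, 1071 values in all. Of these, 1043 kept their side of the threshold, 15 lost a call, 13 gained one and 0 called changes turned sign; 50 uncalled changes did turn sign. In the double knockdown against control the number of probe sets called was 0 under median centring, quantile normalization and with the spread taken from the compared groups, and 3 with control replicate 1 and Dcp2 knockdown replicate 2 both left out, against 1. Against the Dcp1a knockdown it was 0 under median centring and quantile normalization, 3 with the spread from the compared groups and 2 without both arrays, against 1. Leaving out 1 array gave 0 to 3 calls against control and 0 to 2 against the Dcp1a knockdown. The other 4 comparisons gave 0 throughout. With the replicate number as a block, 1 probe set was called in each of these comparisons, Smc1a 1417831_at in both, and no other call among the 9 changed; against the Dcp1a knockdown the block ended the calls of Stag2 (adjusted p = 0.0818, limma) and Ncapg (0.0525). The labels do not say that replicate numbers mark shared batches. Same-numbered arrays deviated together at r over 0.1 in 9 of 18 pairs, and differently numbered arrays in 14 of 36 (median r of 0.08 and 0.02).

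Counts over all probe sets moved more. Over all alternatives they ranged from 277 to 3215 for the double knockdown against control, 702 to 2779 against the Dcp1a knockdown, 471 to 863 against the Dcp2 knockdown, 0 to 627 and 0 to 2419 for the Dcp1a and Dcp2 knockdowns against control, and 160 to 683 for the interaction. Calls against control split 768 higher to 243 lower, and 699 to 364 under median centring. Signal at or near the floor left Rec8, Stag3 and Smc1b without a test.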
